A study of Mus musculus with 10 samples.

Results

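The renin-angiotensin system was represented by 9 genes, *Ren1*, *Agt*, *Ace*, *Mme*, *Enpep*, *Agtr1a*, *Agtr1b*, *Agtr2* and *Mas1*, taken by name from the 21792 genes with a deposited level. Their Ensembl identifiers were matched to mouse symbols, and each of the 9 had a level in every mouse. The level is FPKM, fragments scaled by exon length and by the fragments mapped in the library, so that levels of different genes can be compared per length. RNA came from the kidney cortex of 10 WT male C57BL/6 mice, 8 weeks old at the start. The 6 AAN (aristolochic acid nephropathy) mice had received aristolochic acid once by the intraperitoneal route at 5 mg/kg in PBS. Aristolochic acid is a plant toxin that injures proximal tubules. The 4 sham mice had received PBS in the same amount. All mice were killed at day 28, 1 library was made from each mouse, and the litter, cage and sequencing batch of each library were not given, although the study's methods name littermates as controls. Each library is named here by its group and its mouse tag, such as B607.

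Renin, the product of *Ren1*, is an aspartyl protease that juxtaglomerular cells of the afferent arteriole release, and it cuts angiotensin I from angiotensinogen, the product of *Agt*. Angiotensin-converting enzyme (*Ace*), on endothelium and on the brush border of proximal tubules, turns angiotensin I into angiotensin II and also breaks down bradykinin. Angiotensin II constricts vessels, raises sodium reabsorption and promotes fibrosis through the type 1 receptor, which rodents encode in the gene pair *Agtr1a* and *Agtr1b*, while *Agtr2* encodes the type 2 receptor. Neprilysin (*Mme*) and aminopeptidase A (*Enpep*) are brush border and podocyte peptidases that shorten angiotensins, and *Mas1* encodes a receptor for the shortened peptide of the protective arm.

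The libraries held an estimated 13.3 to 17.5 M fragments, and mitochondrial transcripts took 39.5 to 61.4% of the summed FPKM in sham mice against 21.4 to 55.0% in AAN mice. A pair of mice stood apart from their groups. In sham mouse B607, the median log2 difference from the other 3 sham mice went from -0.16 in the sixth of genes with the shortest exonic length to 0.63 in the sixth with the longest. In AAN mouse B614 it went from -0.40 to 0.23. In the other 8 mice the same change, longest minus shortest, lay between -0.32 and 0.02. B614 was also nearer to the sham mice in proximal tubule genes, with a summed level of 2409 FPKM over 10 such genes against at most 1179 in the other AAN mice and at least 2583 in the sham mice. The calls on the members and the pathway counts are therefore also given without both mice, as are the pathway genes whose call changes.

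**Figure D1:**
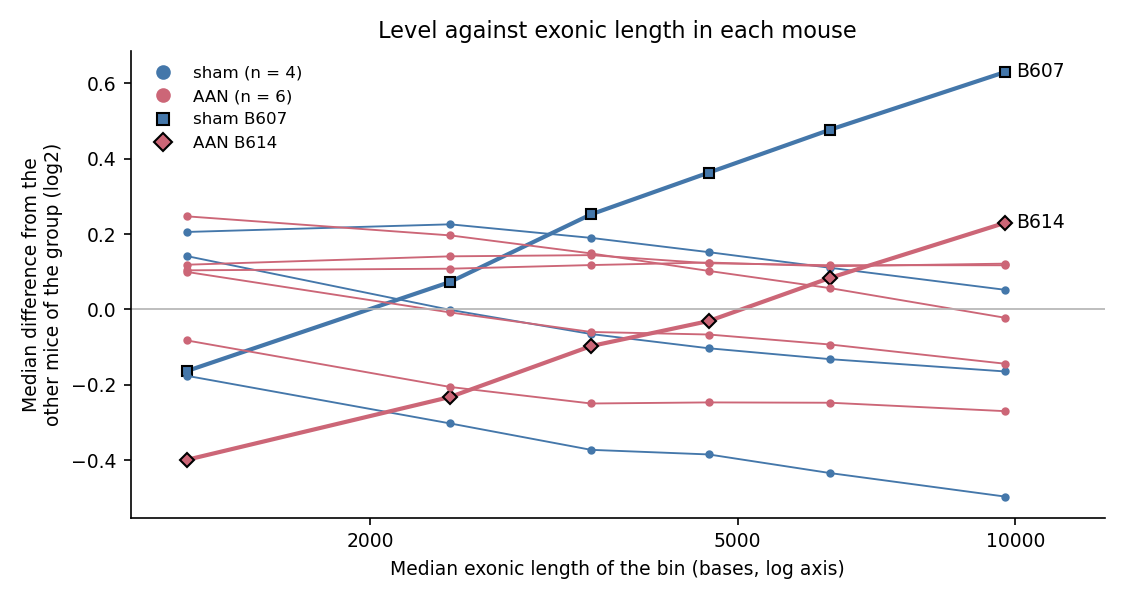
Median log2 difference of each mouse from the other mice of its group (vertical axis) in 6 bins of genes by exonic length (horizontal axis, bases, log scale), for genes that average 1 FPKM or more. B607 (square) and B614 (diamond) climb from the shortest to the longest genes, by 0.79 and 0.63, and the other 8 mice do not.

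*Ren1*, *Agt* and *Ace* encode the enzymes and the substrate that make angiotensin II, and since *Agt* and *Ace* were called in opposite directions, the bases just before the transcription starts of these 3 genes are shown. RefSeq promoters on GRCm38.p6 were at hand for 8 of the 9 genes, as 11 starts, and those below are 120 bases, each 5′ to 3′ on the gene's strand and ending at the base before the start. Capitals mark matches, on either strand, to the letters TATAAA of a TATA box, to the letters GGGCGG of a GC box, or to AATAAATCA, TTCNNNGAA (a spaced palindrome that STAT proteins bind) or TGACGTCA (the cyclic AMP response element).
Ren1, chr1:133350554-133350673, plus strand: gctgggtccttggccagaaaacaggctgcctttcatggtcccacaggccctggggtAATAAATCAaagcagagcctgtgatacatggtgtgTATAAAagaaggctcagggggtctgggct
Agt, chr8:124569707-124569826, minus strand: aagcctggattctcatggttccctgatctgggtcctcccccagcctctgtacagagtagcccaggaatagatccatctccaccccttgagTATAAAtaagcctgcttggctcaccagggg
Ace, chr11:105967828-105967947, plus strand: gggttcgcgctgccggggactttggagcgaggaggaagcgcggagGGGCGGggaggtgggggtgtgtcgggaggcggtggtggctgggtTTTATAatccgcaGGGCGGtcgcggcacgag

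All 3 held TATAAA, with the first base of the match 29 bases before the start in *Ren1*, 30 in *Agt* and 31 in *Ace*, where it lay on the opposite strand. Of all 32851 promoters in the table, 12.4% held TATAAA in the 250 bases before the start, as did 5 of the 11 starts of these genes. AATAAATCA, the letters of a HOX and PBX type site, stood 64 bases before the *Ren1* start and occurred in 0.271% of all promoters. GGGCGG stood 75 and 18 bases before the *Ace* start and occurred in 32.7%. TTCNNNGAA occurred in 7.02% of all promoters and in 3 of the 11 starts, outside the stretches shown, and TGACGTCA in 1.55% and in none of the 11. *Ace* has a second start within the gene, and its gene level covers transcripts of both.

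Of the 9 genes, 7 averaged 0.1 FPKM or more across all mice and were tested with limma among 17129 genes. In AAN kidneys *Agt* was significantly increased and *Ace* significantly decreased, where a call required an adjusted p of 0.05 or less and a change of 2-fold or more in either direction. *Ren1*, *Mme*, *Enpep*, *Agtr1a* and *Mas1* did not pass both limits. Over all genes tested, 35.8% were called higher and 3.43% lower. The share of 1 in 7 lies below the first and above the second. With 7 genes, these counts do not set the list apart from all genes. Levels of sham and AAN mice did not overlap in 43.6% of all genes tested and in 0 of these 7. The table as a whole was shifted upward. Over all genes the log2 fold change had a median of 0.75, and the genes called were higher in 91.2% of cases. After scaling by the median of ratios the median was 0.06 and that share 64.4%, and after quantile normalization they were -0.13 and 50.9%. The median of the 7 was -0.10, which is 0.85 below the median of all genes, and 2 of the 7 (*Agt* and *Mme*) lay above that median. Since whole cortex was measured, fewer cells of a type and less RNA per cell cannot be told apart.

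**Figure D2:**
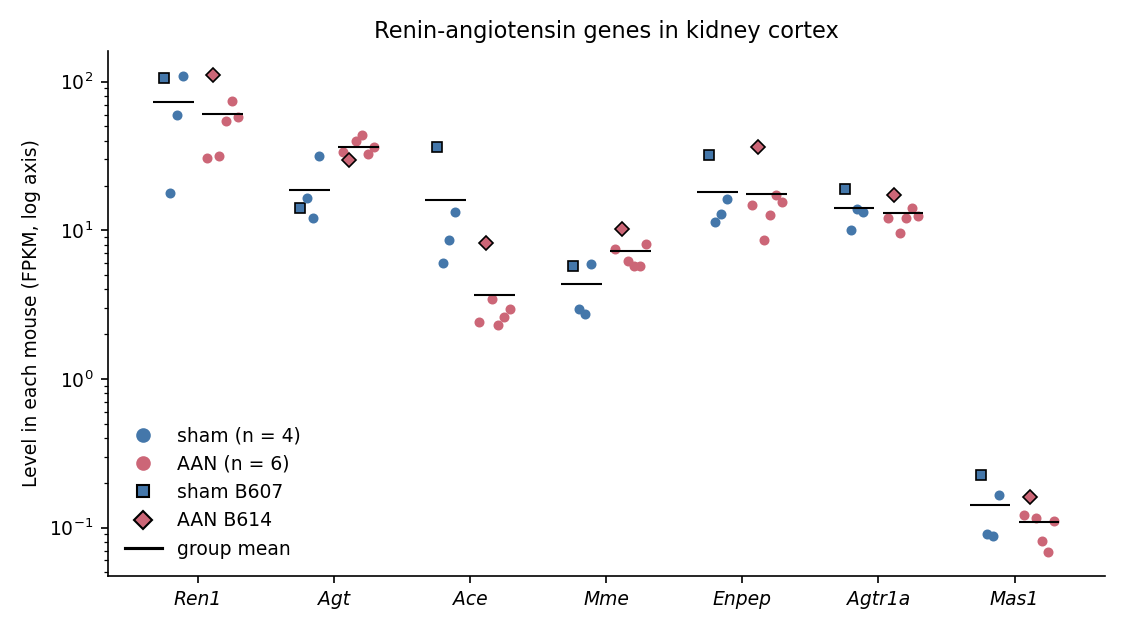
Level of the 7 tested renin-angiotensin genes in each mouse (FPKM, log axis), with sham mice in blue, AAN mice in red and the group mean as a line. For *Ace*, 5 of the 6 AAN mice lie below every sham mouse, and for *Agt* 5 of the 6 lie above every sham mouse. B607 (square) and B614 (diamond) are high in most genes.

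*Ren1* (ENSMUSG00000070645, GRCm38 chr1:133350510-133360325, plus strand) had the highest mean level of the 9 genes in both groups. The 4 sham mice had 105 (B607), 17.9 (B634), 59.4 (B636) and 109 FPKM (H249). The 6 AAN mice ran from 30.6 to 112 with a median of 56.4. The lowest and nearly the highest *Ren1* level were both found in sham mice, and the range of the AAN mice lay almost wholly inside that of the sham mice. The means were 73.0 ± 43.1 (SD, n = 4) in sham mice and 60.1 ± 30.2 (SD, n = 6) in AAN mice, and the log2 fold change was -0.13 (95% confidence interval -1.24 to 0.99; limma adjusted p = 0.841). That interval holds changes from 0.422-fold to 1.99-fold. *Ren1* varied between mice of the same group more than most genes did, with a within-group SD of 0.94 on the log2 scale, above that of 95.5% of the 12271 genes that averaged 1 FPKM or more. The sham mouse with the lowest *Ren1*, B634, also had the highest mitochondrial share (61.4%), and the part of that share in the *Ren1* level was not tested. Without B634 the log2 fold change was -0.70 (adjusted p = 0.164), and without H249 it was 0.17.

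*Agt* (ENSMUSG00000031980, chr8:124556534-124569706, minus strand), the substrate of renin, which proximal tubules make within the kidney, had 14.1, 16.4, 12.1 and 31.7 FPKM in sham mice B607, B634, B636 and H249. In AAN mice it ran from 29.6 to 44.1 with a median of 35.1. Only sham mouse H249 reached the AAN range, and 5 of the 6 AAN mice were above every sham mouse. *Agt* rose from 18.6 ± 8.93 (SD, n = 4) to 36.1 ± 5.25 (SD, n = 6), a log2 fold change of 1.05 ± 0.25 (SE) or 2.07-fold (95% confidence interval 1.43 to 2.995; adjusted p = 0.00309). The exact permutation test over the 210 ways to split the mice gave p = 0.0190, two-sided, where 0.00952 is the smallest it can give. The rise is close to the shift of the whole table. It was 0.30 above the median of all genes, and 64.6% of genes had a lower fold change. After scaling by the median of ratios the log2 fold change was 0.29 (adjusted p = 0.380), and after quantile normalization it was 0.68 (adjusted p = 0.0451). Without B607 and B614 it was 1.01 (adjusted p = 0.00913). Leaving out B607, B636 or B639 took *Agt* just under the limit on fold change, at 0.95, 0.88 and 0.99 on the log2 scale, with an adjusted p of at most 0.0132.

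*Ace* (ENSMUSG00000020681, chr11:105967945-105989964, plus strand) had 36.4 FPKM in B607, 6.02 in B634, 8.64 in B636 and 13.2 in H249. In AAN mice it ran from 2.31 to 8.25 with a median of 2.77. B607 was the highest sham mouse and B614 the highest AAN mouse, and B614 was the only AAN mouse inside the sham range. *Ace* fell from 16.1 ± 13.9 (SD, n = 4) to 3.66 ± 2.28 (SD, n = 6), a log2 fold change of -1.91 ± 0.48 (SE), or 0.265 of the sham level (95% confidence interval 0.129 to 0.545; adjusted p = 0.00435; exact permutation p = 0.0190). Only 1.004% of all genes tested had a lower fold change. The fall was -1.41 without B607 (adjusted p = 0.00905), -2.18 without B614 (adjusted p = 0.00113) and -1.67 without both (adjusted p = 0.000269). It was -2.66 with the median of ratios and -2.62 after quantile normalization. An antisense gene, *Gm11651*, overlaps *Ace*, and it was listed at 0 in 9 of the mice and at 0.0686 FPKM in 1 AAN mouse.

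*Mme* (ENSMUSG00000027820, chr3:63241537-63386030, plus strand), encoding neprilysin, had 5.71, 2.94, 2.73 and 5.96 FPKM in B607, B634, B636 and H249 and ran from 5.75 to 10.2 in AAN mice, with a median of 6.83. The groups met only at their edges, with 4 of the 6 AAN mice above every sham mouse. The means were 4.33 ± 1.74 (SD, n = 4) and 7.24 ± 1.72 (SD, n = 6). The log2 fold change of 0.78 ± 0.26 (SE; adjusted p = 0.0217) passed the limit on p but not that on fold change, at 1.72-fold. It equalled the median of all genes to within 0.04, and it was 0.04 with the median of ratios (adjusted p = 0.910). Without B607 and B614 it was 0.84 (adjusted p = 0.0156), still under the limit on fold change.

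*Enpep* (ENSMUSG00000028024, chr3:129269175-129332720, minus strand), encoding aminopeptidase A, had 32.2, 11.4, 12.9 and 16.3 FPKM in B607, B634, B636 and H249. In AAN mice it ran from 8.57 to 36.2 with a median of 15.1, and B614 held the highest value. The highest mouse of each group was thus the one with the length trend, and the remaining sham and AAN mice covered much the same range. The means were 18.2 ± 9.57 (SD, n = 4) and 17.5 ± 9.65 (SD, n = 6), with a log2 fold change of -0.08 (95% confidence interval -0.90 to 0.75; adjusted p = 0.867). This lies 0.83 below the median of all genes. Without B607 and B614 it was -0.00031 (adjusted p = 0.999).

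*Agtr1a* (ENSMUSG00000049115, chr13:30336441-30382867, plus strand), encoding the main type 1 receptor of rodents, varied least between mice of the same group among the 6 members that averaged 1 FPKM or more, with a within-group SD of 0.32 on the log2 scale. It had 19.01, 10.03, 14.0 and 13.2 FPKM in B607, B634, B636 and H249 and ran from 9.59 to 17.3 in AAN mice, with a median of 12.3. Sham and AAN values lay in the same range, with means of 14.1 ± 3.72 (SD, n = 4) and 13.0 ± 2.59 (SD, n = 6). The log2 fold change was -0.10 (95% confidence interval -0.55 to 0.34; adjusted p = 0.678), so the interval left out a change of 2-fold in either direction on the deposited scale. Relative to the median of all genes it was -0.85. With the median of ratios the log2 fold change was -0.86 (adjusted p = 0.000895), and after quantile normalization -0.63 (adjusted p = 0.00691), both short of the limit on fold change. Without B607 and B614 the log2 fold change was -0.03 for *Agtr1a*, -0.06 for *Ren1* and -0.09 for *Mas1* (adjusted p = 0.866, 0.930 and 0.764), and none was called.

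The other 3 receptors were scarce. *Agtr1b* (ENSMUSG00000054988, chr3:20314473-20367177, minus strand) was listed at 0 in 3 sham mice and 1 AAN mouse and reached at most 0.0790 FPKM. Multiplied by the estimated depth, its values were whole multiples of the smallest, within 0.05 of this step. The 4 sham libraries together held 1 such step and the 6 AAN libraries 12, with 4, 1, 0, 4, 2 and 1 in A483, B614, B630, B639, B642 and B666. By exonic length and estimated depth, the 1 sham step came to at most 0.563 of a fragment. Steps of *Agtr1b* are therefore not counts of fragments. *Agtr2* (ENSMUSG00000068122, chrX:21484544-21489164, plus strand) had 1 step of its own, at most 0.938 of a fragment, in 3 sham mice and in 1 AAN mouse and was listed at 0 in the other 6. A library at 0 allows up to 3 fragments. If these are taken as 3 steps, the limit is 0.0508 FPKM for *Agtr1b* and 0.0634 for *Agtr2*, for counting error alone. As a step of *Agtr1b* was under 1 fragment, its limit may be higher. For *Agtr1b*, 4 of the 6 AAN mice lay above every sham mouse (exact permutation p = 0.0857), and for *Agtr2* the exact permutation p was 0.238. Neither difference passed the test. *Mas1* (ENSMUSG00000068037, chr17:12841079-12868143, minus strand) had 0.227, 0.0911, 0.0877 and 0.164 FPKM in B607, B634, B636 and H249 and 0.0686 to 0.161 in AAN mice. Its log2 fold change was -0.18 (95% confidence interval -0.74 to 0.37; adjusted p = 0.541). After quantile normalization it was -1.36 and called lower (adjusted p = 0.000506), with the median of ratios -0.60 (adjusted p = 0.0510). The antisense gene *Airn*, which overlaps *Mas1*, had 0.677 to 1.07 FPKM over the 10 mice, and the strand setting of the counting was not given, so reads of this pair cannot be told apart.

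**Figure D3:**
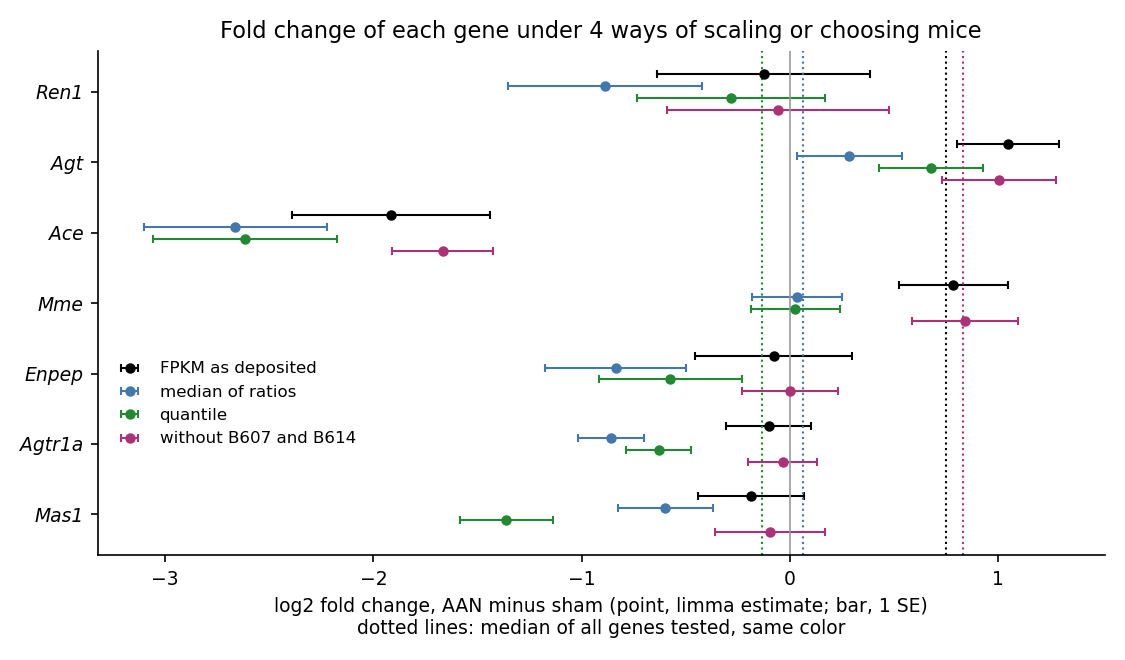
Log2 fold change, AAN minus sham, of the 7 tested genes (point, limma estimate; bar, 1 SE) on the deposited FPKM, under quantile normalization, under the median of ratios and without mice B607 and B614. Dotted lines give the median of all genes under each setting. *Ace* lies between -2.66 and -1.67 in all 4, while *Agt* goes from 1.05 to 0.29 and *Agtr1a* from -0.10 to -0.86 with the median of ratios.

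Since *Ace*, *Mme*, *Enpep*, *Agt* and *Agtr1a* are all expressed by proximal tubules, each was also set against the mean log2 level of 10 proximal tubule genes in the same mouse (*Lrp2*, *Cubn*, *Slc34a1*, *Slc5a2*, *Slc5a12*, *Slc22a6*, *Slc27a2*, *Slc13a3*, *Acsm2* and *Keg1*). These include endocytic receptors and transporters of phosphate, glucose, lactate and organic anions. This list was lower in AAN mice by a mean of -1.78 on the log2 scale, and 8 of its 10 genes were called lower. The distance of *Ace* from the list was -3.41 ± 0.73 (SD, n = 4) in sham mice and -3.54 ± 0.37 (SD, n = 6) in AAN mice. The sham mice alone spanned -4.04 to -2.41. A factor common to all genes of a mouse cancels in such a difference, apart from the pseudocount. The shift was -0.13 ± 0.39 (SE; exact permutation p = 0.695), and without B607 and B614 it was 0.23 ± 0.27 (exact permutation p = 0.5). With these SEs a moderate shift either way remains possible.

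The 4 other genes parted from the list. *Agt* moved from -2.96 ± 0.74 (SD, n = 4) to -0.13 ± 0.92 (SD, n = 6) relative to it, a shift of 2.83. *Mme* shifted by 2.57, *Enpep* by 1.70 and *Agtr1a* by 1.68 in the same direction. For each of these 4 genes every AAN mouse (6 of 6) lay above the highest sham mouse, and the exact permutation p was 0.00952, the smallest it can give, or 0.0114 adjusted over the 6 within-mouse differences examined. In sham mice the distance of *Agtr1a* to the list had an SD of 0.097 (n = 4). Among AAN mice, B614 lay nearest to the sham mice for *Agt*, *Mme* and *Agtr1a*. Without B607 and B614 the 4 shifts were 2.90, 2.74, 1.90 and 1.86 (each exact permutation p = 0.0357, again the smallest it can give, adjusted 0.0429). The differences contain the fall of the list itself (-1.78). The median log2 fold change of all genes was 0.75, so a gene at that median also moves up against this list. The share of all genes that separate from the list in this way was not counted. The exact p therefore does not set these 4 genes apart from other genes.

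**Figure D4:**
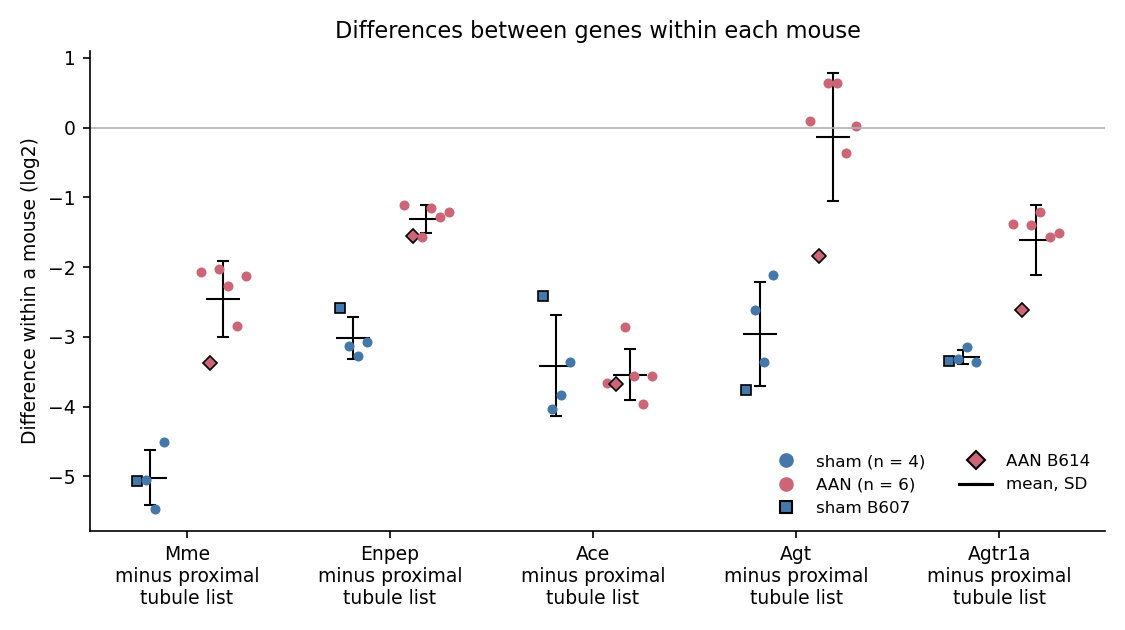
Log2 difference within each mouse of 5 renin-angiotensin genes from the mean of 10 proximal tubule genes, with the mean and SD of 4 sham (blue) and 6 AAN mice (red). The groups separate in each difference but that of *Ace* from the proximal tubule list, where all AAN mice lie inside the sham range.

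In mean level the sham order was *Ren1* (73.0 FPKM), *Agt* (18.6), *Enpep* (18.2), *Ace* (16.1), *Agtr1a* (14.1), *Mme* (4.33) and *Mas1* (0.142), with *Agtr2* and *Agtr1b* below. *Agt*, *Enpep*, *Ace* and *Agtr1a* overlapped in range and were not set apart by the spread between sham mice, while the lowest *Agtr1a* value (10.03) lay above the highest of *Mme* (5.96). In AAN mice the order was *Ren1* (60.1), *Agt* (36.1), *Enpep* (17.5), *Agtr1a* (13.0), *Mme* (7.24), *Ace* (3.66) and *Mas1* (0.110). *Ace* thus went from the fourth place to the sixth, and *Mme* passed it. In that order each gene from *Ren1* to *Ace* overlapped in range between mice with its neighbour. Compared within a mouse, *Ace* lay above *Mme* in every sham mouse and below it in every AAN mouse.

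The 2 genes most like each member in log2 level across the 10 mice were looked up among 12241 named genes that averaged 1 FPKM or more. These correlations describe points that share a library, its depth and its length trend, and they carry no p. *Ren1* was most like *Dock9* (r = 0.95 over 10 mice, 0.95 over the 6 AAN mice) and *Crat* (0.93 and 0.91). *Agt* was most like *Gja4*, an arteriolar connexin gene (0.97 and 0.67), and *Bcat1* (0.96 and 0.49). *Ace* was most like *Pm20d1* (0.99 and 0.97) and *Pafah2* (0.98 and 0.88), and *Mme* like *Smad6* (0.97 and 0.92) and *Zfp503* (0.97 and 0.94). *Enpep* was most like *Slc35e1* (0.99 and 0.99) and *Pank3* (0.98 and 0.99), and *Agtr1a* like *Gphn* (0.98 and 0.96) and *Egln2* (0.97 and 0.98). Among the members, *Enpep* and *Agtr1a* were the closest pair over 10 mice (r = 0.93). Over the 8 mice without B607 and B614 they stood at 0.83 and the closest pair was *Agt* and *Mme* (0.91, against 0.69 over 10 mice), whereas *Ace* and *Enpep* went from 0.58 to 0.04 without that pair of mice. Over the 6 AAN mice, r was 0.98 for *Enpep* and *Agtr1a* and 0.73 for *Ace* and *Enpep*. For *Agt* and *Mme* it was -0.66 there, and 0.30 for deviations from the group means over 10 mice.

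Other genes of the pathway were taken as 5 lists of 50 genes. Of the 46 with a level, 43 were tested, and 9 were called higher and 1 lower, or 4 and 3 with the median of ratios. Without B607 and B614, 12 were called higher and 1 lower, and without B607 alone 14 were called higher. The 9 of 43 called higher is a smaller share than the 35.8% of all genes, and 1 of 43 called lower lies near the 3.43% of all genes. Among 13 tested peptidases and other genes that make or break angiotensins, 2 were called higher. These were *Ctsd*, the lysosomal aspartyl protease cathepsin D (mean ± SD, 165 ± 46.4 to 342 ± 95.1 FPKM, log2 fold change 1.04, adjusted p = 0.00548), and *Rnpep*, aminopeptidase B (4.83 ± 0.703 to 10.1 ± 1.70, log2 fold change 1.04, adjusted p = 0.000311). With the median of ratios their log2 fold changes were 0.27 and 0.29 and neither was called. Each also lost its call for the fold change alone when some mice were left out (*Ctsd* at 0.87 to 1.19 and *Rnpep* at 0.96 to 1.15 over all mice left out in turn). *Atp6ap2*, the (pro)renin receptor, had a log2 fold change of 0.62 (adjusted p = 0.1003), and *Anpep*, aminopeptidase N, of -0.20 (adjusted p = 0.328). *Lnpep*, an aminopeptidase that binds the hexapeptide angiotensin, was 4.34 FPKM in B607 against at most 0.773 in the other sham mice, and its log2 fold change was 1.32 (adjusted p = 0.0678) with all mice and 1.60 without B607 and B614, where it was called higher.

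Of 7 tested genes of receptor partners and signalling, 2 were called higher. *Arrb2*, β-arrestin 2, which uncouples and internalises receptors, rose from 2.21 ± 0.487 (SD, n = 4) to 20.5 ± 6.38 FPKM (SD, n = 6), or 8.57-fold (adjusted p = 3.28e-06), and by 2.35 on the log2 scale with the median of ratios. *Rgs2*, which shortens Gq signalling, rose from 2.39 ± 0.172 to 8.59 ± 1.90 FPKM, or 3.44-fold (adjusted p = 5.75e-06). *Rgs2* had a log2 fold change of 1.04 with the median of ratios, still called, and of 0.97 after quantile normalization, under the limit on fold change. *Gnaq*, encoding the Gq subunit through which the type 1 receptor signals, had a log2 fold change of 0.97 (adjusted p = 0.00288), under the limit on fold change. It was called higher without B607 and B614 (1.17, adjusted p = 8.03e-05). *Gnaq* was not called with the median of ratios (0.22, adjusted p = 0.321) or after quantile normalization (0.20, adjusted p = 0.327). *Agtrap*, whose product binds the type 1 receptor, had a log2 fold change of 0.14 (adjusted p = 0.553). The leukocyte and macrophage list, whose cells also express *Arrb2*, moved with this gene. All 7 of its genes were called higher and its summed level went from 33.5 to 62.7 FPKM in sham mice to 1519 to 4879 in AAN mice. Its part in the *Arrb2* result was not tested.

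In the kinin system, which shares ACE as the enzyme that degrades bradykinin, 5 of 7 genes were tested. *Klk1*, tissue kallikrein, had 2142 (B607), 3133 (B634), 3662 (B636) and 3364 FPKM (H249) in the sham group and 1132 to 2975 in the AAN group, highest in B614. It fell from 3075 ± 659 (SD, n = 4) to 1573 ± 692 (SD, n = 6), a log2 fold change of -1.02 (adjusted p = 0.00768), and it was -1.39 without B607 and B614. After quantile normalization it was -0.62 (adjusted p = 0.226). Leaving out B636, H249, A483, B630, B639, B642 or B666 took it just under the limit on fold change, with values of -1.23 to -0.93 over all mice left out in turn and an adjusted p of at most 0.0284. *Cpn1*, the catalytic chain of carboxypeptidase N, rose from 23.9 ± 3.34 to 52.9 ± 11.4 FPKM, or 2.18-fold (adjusted p = 0.000313), and by 0.36 on the log2 scale with the median of ratios, no longer past the limits. *Bdkrb2*, the constitutive kinin receptor, had a log2 fold change of 1.15 (adjusted p = 0.0545), and without B607 and B614 it was called higher (1.20, adjusted p = 0.0203). It was not called with the median of ratios (0.73, adjusted p = 0.258) or after quantile normalization (-0.08, adjusted p = 0.915). *Bdkrb1*, the inducible kinin receptor, was under the limit for the test. It was listed at 0 in all 4 sham mice and at 0.0172 to 0.144 FPKM in the 6 AAN mice. Its lower values are of the size of the smallest steps in *Agtr1b*. The fragments of *Bdkrb1* were not estimated, and a level of 0 need not mean absence.

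Of 9 tested genes of the juxtaglomerular apparatus and macula densa, where renin release is set, 4 were called higher, a share near that of all genes (35.8%). *Ptger4*, a prostaglandin E2 receptor gene, had 0.406, 0.349, 0.448 and 0.615 FPKM in the sham mice B607, B634, B636 and H249 and 3.04 to 6.65 in AAN mice, a rise of 10.1-fold (adjusted p = 5.85e-07). *Ptgs2*, which encodes COX-2, went from 0 to 0.0776 FPKM in sham mice to 0.194 to 0.457 in AAN mice (log2 fold change 1.41, adjusted p = 0.00106). *Foxd1*, a stromal progenitor factor, and *Pde3b*, a phosphodiesterase gene, had log2 fold changes of 1.28 and 1.35 (adjusted p = 0.000863 and 0.000167). Under the median of ratios *Ptger4* (2.66) and *Ptgs2* (1.02) passed both limits and *Foxd1* (0.60) and *Pde3b* (0.62) did not. After quantile normalization *Ptger4* (2.26) was the only one of the 4 called, with *Ptgs2* at 0.15 (adjusted p = 0.684), and *Ptgs2* was not called with the length trend removed either (0.68, adjusted p = 0.0903). *Akr1b7*, a gene of renin cells, had a log2 fold change of 0.62 (adjusted p = 0.0363) and *Gja5*, the connexin of those cells, of 0.18 (adjusted p = 0.495). *Ptger4* and *Ptgs2* are also expressed by leukocytes, whose list moved with them as given for *Arrb2*, and its part was not tested. The smooth muscle and pericyte list, which holds the lineage of renin cells, had 6 of 7 genes called higher, with summed levels of 44.2 to 69.4 FPKM (sham) and 95.6 to 302 (AAN).

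None of the 9 genes of the aldosterone response, by which angiotensin II acts on the distal nephron, passed both limits in limma, and 1 of the 9 (*Nedd4l*) had an unadjusted p under 0.05. Their median log2 fold change was 0.23, which is 0.52 below the median of all genes, and all 9 lay below that median. *Nr3c2*, the mineralocorticoid receptor gene, went from 0.698 ± 0.0670 (SD, n = 4) to 0.911 ± 0.297 FPKM (SD, n = 6), with a log2 fold change of 0.30 (adjusted p = 0.268). The subunits of the epithelial sodium channel did not move as one, at -0.38 (*Scnn1a*), 0.50 (*Scnn1b*) and 0.02 (*Scnn1g*), with adjusted p of 0.230, 0.172 and 0.970. With the median of ratios *Scnn1a* was called lower (-1.13, adjusted p = 0.0035), as was *Vdr* (-1.17). Adrenal cortex genes were near 0, with a summed level of at most 1.41 FPKM over 5 genes in any mouse, and *Cyp11b2* was not analysed here.

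**Figure D5:**
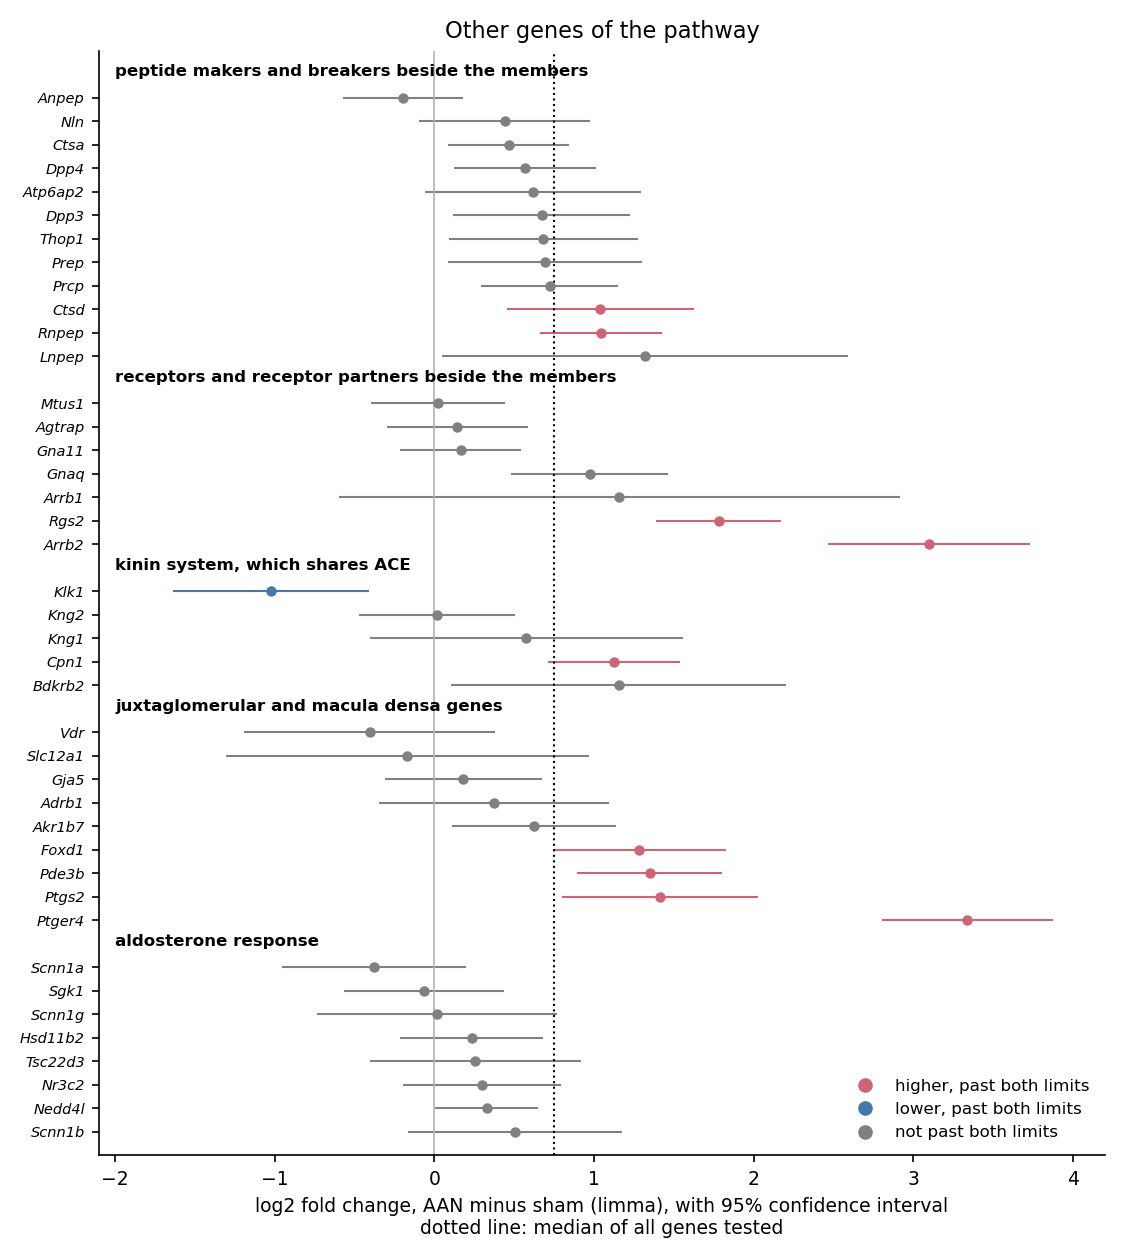
Log2 fold change, AAN minus sham, with its 95% confidence interval (limma) for 41 of the 43 tested genes of the 5 pathway lists. Red points passed both limits upward (9 genes), the blue point downward (*Klk1*), and grey points did not pass both. The dotted line is the median of all genes tested (0.75). *Ptger4* and *Arrb2* lie farthest to the right, and the 8 aldosterone genes drawn lie to the left of the dotted line.

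The other lists of cell markers, whose part in the results above was not tested, stood as follows. For podocytes, which also carry *Mme* and *Enpep*, 2 of 6 genes were called higher and the summed level was 44.3 to 86.0 FPKM (sham) and 50.4 to 131 (AAN), highest in B614. For endothelium, which carries *Ace*, 0 of 7 genes passed both limits in limma and 4 had an unadjusted p under 0.05, with summed levels of 66.6 to 107 FPKM (sham) and 122 to 144 (AAN). All 6 fibroblast genes were called higher, with sums of 12.7 to 17.2 and 106 to 239 FPKM. Of 5 tested B cell genes, 4 were called higher. No marker was at 0 in all mice.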

How the data were processed

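Kidney cortex RNA-seq of 10 mice (4 sham, 6 AAN, grouped by the treatment label of each sample) was used as deposited. The authors prepared paired-end TruSeq libraries, mapped reads to GRCm38 with HISAT2 and computed FPKM with StringTie. The deposited unit is FPKM per Ensembl gene, not counts, so limma 3.58.1 (R 4.3.3) replaced the edgeR of the study. The annotation release and strand setting are not given in the sources used here. Symbols, positions and exonic lengths came from GENCODE M21 (GRCm38), which held 21650 of 21792 identifiers. Promoters came from RefSeq on GRCm38.p6.

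lmFit and eBayes (trend, robust) were run on log2(FPKM + 0.1), AAN minus sham, for 17129 genes averaging 0.1 FPKM or more, with Benjamini-Hochberg adjustment over all of them. Fold changes on this scale understate changes of low genes. A gene was called at an adjusted p of 0.05 or less with a change of 2-fold or more either way. The script was tested on simulated data. Differences within a mouse were compared by exact two-sided permutation over 210 splits of the mice, adjusted over 6 differences. Of these, 1 is not reported here, nor are 2 of the pathway genes, which stay in the counts. Each library is a separate mouse. Depth was estimated from values under 0.3 FPKM of genes with 1 transcript, 80.5 to 96.1% of which were whole fragments within 0.05. Intervals from fragments cover counting error only.

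The 9 genes, the pathway lists and the marker lists were chosen with earlier results of these data known. All 9 genes were named, then pathway genes that passed the limits or that a sentence turns on, then the 2 genes most correlated with each member of at least 1 FPKM. Alternatives were a pseudocount of 1 or 0.01, a filter at a mean of 1 FPKM or none, the median of ratios, quantile normalization, an equal total outside the mitochondrial genome, limma without trend and robust, no limit on fold change, each mouse left out, and mice with B tags alone. Leaving out B607 and B614, removing the trend with exonic length in each mouse, and using 3 long proximal tubule genes were chosen after seeing the data.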

Additional observations from a re-analysis of the deposited data

Results flagged for a closer look

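In 19 of 131 groups of values examined (each gene, difference or marker list in the 4 sham or the 6 AAN mice), 1 mouse stood apart from the others by Dixon's test at the 95% level, where chance alone gives about 1 in 20, or 6.55. Of the 19, 14 were values of B614, an AAN mouse. Among the renin-angiotensin genes, its levels were 8.25 FPKM for *Ace* (2.31 to 3.42 in the other AAN mice), 36.2 for *Enpep* (8.57 to 17.3) and 0.0180 for *Agtr2*, which was listed at 0 in the others. Its difference *Agtr1a* minus the proximal tubule list was -2.61 on the log2 scale (-1.56 to -1.21 in the others).

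Among the other pathway genes, B614 had 9.72 FPKM of *Lnpep* (1.38 to 2.86 in the other AAN mice), 4.24 of *Kng1*, 2975 of *Klk1* and 1.33 of *Bdkrb2*. It had 53.8 FPKM of *Vdr*, 15.4 of *Scnn1a*, 35.4 of *Scnn1b*, and 40.2 of *Scnn1g*, a subunit gene of the epithelial sodium channel (11.8 to 19.5 in the rest of the AAN mice). B614 was the highest AAN mouse in all of these genes. Its mean log2 level was 6.73 for the proximal tubule list (4.68 to 5.40 in the others) and 3.28 for the smooth muscle and pericyte list (3.84 to 4.16). Its trend with exonic length and its nearness to sham mice in proximal tubule genes moved with these values, and their part in them was not tested.

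The sham mouse B607 stood apart in *Lnpep*, at 4.34 FPKM (0.536 to 0.773 in the other sham mice), and in *Kng1*, at 3.46 (0.805 to 0.825). The sham mouse B634 was apart in *Agtr1b* at 0.0167 FPKM, where the others were at 0, and in *Agtr2*, where it was at 0, each a matter of 1 step. Where all others are at 0, any single value above 0 is flagged, whatever its size. This holds for *Agtr1b* in B634 and *Agtr2* in B614, which stay in the counts above. In the AAN mouse B630, *Ace* minus the proximal tubule list was -2.86, against -3.96 to -3.55 in the others.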

How the results depend on the processing

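*Ace* stayed lower and past both limits in all 21 alternatives, from -2.66 to -1.41 on the log2 scale with an adjusted p of at most 0.0270 (limma). *Agt* stayed above 0 but lost its call with the median of ratios (0.29), quantile normalization (0.68) and the length trend removed (0.42), and ranged from 0.88 to 1.34 with each mouse left out. *Mme* was above 0 throughout (0.02 to 0.96) and was called only with no limit on fold change. *Mas1* was called lower after quantile normalization alone (-1.36). With each mouse left out, *Ren1* ranged from -0.70 to 0.17, *Enpep* from -0.32 to 0.24 and *Agtr1a* from -0.25 to 0.054, and with B tags alone *Ren1* was 0.33. The number of the 9 genes called higher was 0 with the median of ratios, quantile normalization and the length trend removed, 2 with no limit on fold change and 0 to 1 with each mouse left out. The number called lower was 2 after quantile normalization and 1 otherwise. Pathway genes called higher (9) became 5 with a pseudocount of 1, 3 after quantile normalization, 4 with the median of ratios, 3 with the length trend removed, 17 with no limit on fold change and 7 to 14 with each mouse left out. Those called lower (1) became 3 with the median of ratios, 3 with the length trend removed, 0 with B tags alone and 0 to 1 with each mouse left out.

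Over all genes, 6126 were called higher and 588 lower. These became 2909 higher with a pseudocount of 1, 4025 higher with a mean of at least 1 FPKM, 2232 and 2157 after quantile normalization, 3266 and 1802 with the median of ratios, 2923 and 1677 with the length trend removed, and 9482 and 1027 with no limit on fold change. The cause was not tested. The difference *Ace* minus the proximal tubule list was -0.34 to 0.20 with each mouse left out, 0.073 with a pseudocount of 1, 0.23 without B607 and B614 and 0.039 against 3 long genes of the list, and was never called. The 4 other differences reported kept their direction and an adjusted exact p of at most 0.0429 in all 15 alternatives each. In each of these the exact p was the smallest it can give, so it does not measure how firm a shift is. No paired analysis was possible because mouse tags differ between sham and AAN. Depth limits *Agtr1b* and *Agtr2*, and the number of mice limits *Ren1*, whose interval spans 0.422-fold to 1.99-fold.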
